A study of Mus musculus with 14 samples.

Results

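Immediate early genes were followed through 4 stages of experimental autoimmune encephalomyelitis (EAE), a mouse model of multiple sclerosis in which the immune system attacks myelin. The genes were 10 listed symbols, Fos, Fosb, Junb, Egr1, Egr3, Arc, Nr4a1, Ier2, Ier5 and Dusp1, read from a table of 40840 genes. All 10 were found, and all 10 were among the 14893 genes that had enough counts to be tested. None of them passed an adjusted p of 0.05 between any stages in edgeR, the main test here, beside 0% to 0.161% of tested genes. DESeq2 called Ier5 in peak, a single library, against naive, where it called 1.97% of tested genes. It also called Ier5 for any difference among stages, with 1.65% of tested genes, and limma-voom called none of the 10 in either. Between replicates of a stage, 8 of the 10 varied more than 80% of tested genes did. These include Egr3 and Arc, at 3 to 30 counts per library. Across libraries 5 of the 10 (Fos, Dusp1, Egr1, Ier2 and Junb), grouped by their correlations here, varied together. Ier5 had the steadiest levels and came closest to the threshold, with higher means at onset and in the peak library than in naive.

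The libraries were made from total RNA, extracted with a miRNeasy kit, of samples labelled as retinal ganglion cells from the eyes of female mice at 7 to 8 weeks. There were 4 naive libraries, labelled as untreated controls, and 4 libraries of EAE mice before symptoms (called pre here), 4 at onset of symptoms and 1 at the peak of disease. A further sample labelled peak was not analysed here. The labels name no strain, transgene, cell sort or batch, and are silent on whether each replicate is its own animal, so the p-values cover no more than the spread between these samples. Libraries are named by stage and replicate number, as in onset 3. In bulk samples of this kind, fewer cells of a type and less RNA per cell cannot be told apart.

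Immediate early genes are transcribed within minutes of a stimulus such as synaptic activity, a growth factor or stress, from factors already present in the cell, chiefly CREB and the serum response factor with its ELK partners. Many of their products are transcription factors (the FOS and JUN proteins, which pair to form AP-1, the EGR zinc fingers and the orphan nuclear receptor NR4A1) that go on to switch on slower genes. Their transcripts are short-lived, and others among their products, such as the phosphatase DUSP1, shut the signal down again. In neurons of the retina and brain they are widely used as markers of recent activity.

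Promoters were taken from RefSeq on build GRCm38.p6, from 250 bases before to 50 bases after each annotated start, and 6 of the 10 genes (Fos, Fosb, Junb, Nr4a1, Ier5 and Dusp1) were matched by symbol. The 4 shown are those of Fos and Dusp1, the pair that varied together most closely, of Nr4a1, which holds the most short CREB sites, and of Ier5, which stood apart from that pair. Capitals mark the short CREB site TGACG on either strand, read as CGTCA on the reverse strand, and the full site TGACGTCA, which contains the short one on both strands. Fos lies at chr12:85473640-85473939 on the plus strand, Dusp1 at chr17:26508423-26508722 on the minus strand, Nr4a1 at chr15:101266596-101266895 on the plus strand and Ier5 at chr1:155099587-155099886 on the minus strand. Each is written 5′ to 3′ on its own gene's strand.
Fos: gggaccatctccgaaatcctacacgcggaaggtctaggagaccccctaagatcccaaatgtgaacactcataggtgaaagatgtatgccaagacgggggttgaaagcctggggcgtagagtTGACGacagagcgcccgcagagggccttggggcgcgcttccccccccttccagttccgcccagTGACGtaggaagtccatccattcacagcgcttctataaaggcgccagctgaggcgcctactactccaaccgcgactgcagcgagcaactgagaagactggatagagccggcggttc
Dusp1: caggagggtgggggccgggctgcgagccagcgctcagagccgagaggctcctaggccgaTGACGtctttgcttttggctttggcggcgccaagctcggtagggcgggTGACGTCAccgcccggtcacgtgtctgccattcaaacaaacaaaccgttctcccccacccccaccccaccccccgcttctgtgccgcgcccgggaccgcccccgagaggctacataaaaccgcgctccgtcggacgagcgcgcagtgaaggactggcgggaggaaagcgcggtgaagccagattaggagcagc
Nr4a1: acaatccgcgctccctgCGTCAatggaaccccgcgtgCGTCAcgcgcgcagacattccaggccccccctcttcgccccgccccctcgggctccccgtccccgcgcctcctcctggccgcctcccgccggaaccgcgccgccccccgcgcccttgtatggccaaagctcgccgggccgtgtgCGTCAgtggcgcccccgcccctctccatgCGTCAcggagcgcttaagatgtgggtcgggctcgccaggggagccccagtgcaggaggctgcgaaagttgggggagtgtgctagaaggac
Ier5: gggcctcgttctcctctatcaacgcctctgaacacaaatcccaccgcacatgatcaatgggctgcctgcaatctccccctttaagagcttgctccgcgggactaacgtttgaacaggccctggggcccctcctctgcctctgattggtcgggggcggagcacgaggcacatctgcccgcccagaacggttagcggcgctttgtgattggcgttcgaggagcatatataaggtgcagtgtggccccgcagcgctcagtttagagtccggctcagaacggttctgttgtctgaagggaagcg
The short site was present in 5 of the 6 promoters, all but Ier5, against 20.8% of the 32851 promoters in the table. Its first base lay 129 and 66 bases before the start in Fos, and Nr4a1 held 4 copies. Dusp1 was the only one of the 6 with the full site, which 1.79% of all promoters hold, starting 143 bases before the start. The Sp1 motif GGGCGG, searched on both strands, was in 5 of the 6, all but Junb, and in 35.7% of all promoters. The EGR motif GCGNGGGCG, also on both strands, was in Fosb and Nr4a1 and in 5.55% of all promoters. The CArG box, bound by the serum response factor, and the AP-1 motif TGANTCA were in none of the 6 windows on either strand, and in 1.63% and 7.81% of all promoters. The GC content of the 4 promoters shown was 58.7% in Fos, 67.0% in Dusp1, 72.3% in Nr4a1 and 59.0% in Ier5, against a median of 52.7% over all promoters. These matches describe letters in a window, not binding. Sites more than 250 bases before the start, and the promoters of Egr1, Egr3, Arc and Ier2, were not searched.

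Between 2596705 and 7641214 counts fell in genes in each library. Levels are given as CPM, counts scaled to library size with edgeR's TMM factors, and 3 counts, the least that was told apart from 0, equal 0.377 to 1.14 CPM in a single library. That floor covers counting error alone, as the reads carry no molecular identifiers. Ganglion cell markers were present in every group, and the mean log2 CPM of the 13 that were tested ran from 3.93 to 6.36 per library, with Pou4f2 and Pou4f3 at 0 in the peak library. Amacrine cell markers, of inhibitory interneurons in the inner retina, ran from 7.53 to 8.22. Rod photoreceptor markers varied widely, from 3.40 in naive 1 to 7.89 in naive 5.

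Per kilobase of exon, Fos was the most abundant of the 10 genes, at a mean of 71.3 ± 40.2 CPM per kb (SD, n = 13 libraries), above 97.6% of tested genes with a known length. Egr1 followed with 53.0, Nr4a1 with 36.1, Ier5 with 31.6 and Junb with 27.5 CPM per kb. Dusp1 had 19.7, Ier2 18.7 and Fosb 4.60 CPM per kb. Arc, at 0.972 CPM per kb, and Egr3, at 0.462, were near the bottom of the tested genes, and rested on 4 to 30 and 3 to 20 counts per library. The means of neighbours in this order differed by less than the larger of their SDs in 8 of 9 cases, the exception being Ier2 and Fosb, and Fos was above Egr1 in 11 of 13 libraries.

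**Figure D1:**
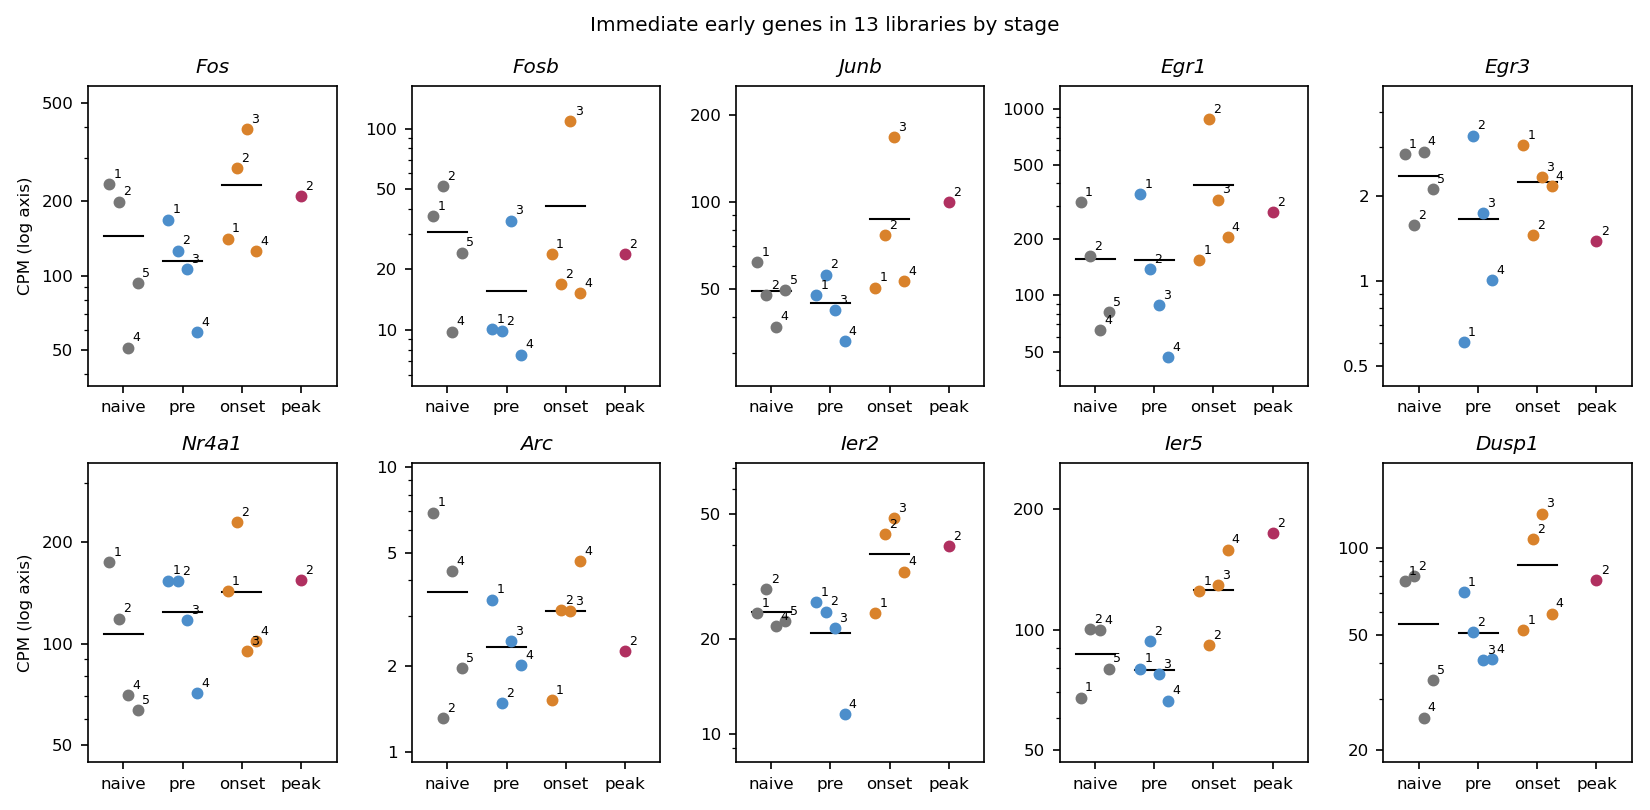
CPM (log axis) of each immediate early gene in 13 libraries by stage, with 1 point per library, its replicate number beside it and a line at the mean of each group of 4. The onset libraries spread widely for Fos, Fosb, Junb and Egr1, where onset 2 or onset 3 is the highest of all 13, and Ier5 is highest in the peak library at 175 CPM.

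Fos, which pairs with JUN proteins and is the classical marker of recent neuronal activity, had 235, 199, 51.1 and 93.5 CPM in the naive libraries 1, 2, 4 and 5. It had 169, 126, 106 and 59.2 CPM in pre 1 to 4, 141, 273, 391 and 126 CPM in onset 1 to 4, and 210.1 CPM in the peak library. Onset 2 and onset 3 were the highest of all 13 libraries and naive 4 was the lowest, and the ranges of all groups of 4 overlapped. Onset against naive gave a log2 fold change of 0.69 (SE 0.53), for which edgeR gave an adjusted p of 0.851.

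Fosb, a FOS relative whose truncated splice form builds up in chronically active neurons, had 36.8, 52.0, 9.84 and 24.3 CPM in naive 1, 2, 4 and 5, and 10.1, 9.87, 34.9 and 7.55 CPM in pre 1 to 4. It had 23.9, 17.0, 108 and 15.3 CPM in onset 1 to 4 and 23.9 CPM in the peak library. A single onset library, onset 3, carried the onset mean: the log2 fold change of onset against naive was 0.43 (SE 0.76) with it and -0.72 without it. In pre the log2 fold change against naive was -1.03 (SE 0.80), with pre 3 far above the other 3 pre libraries. With replicate number as a block it was -1.80, still short of the threshold, and each of the 3 pre libraries with a naive library of the same number was below it. The groups overlapped in every comparison.

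Junb, a partner of FOS proteins, had 61.9, 47.5, 37.0 and 49.4 CPM in naive 1, 2, 4 and 5, and 47.6, 55.9, 42.3 and 32.97 CPM in pre 1 to 4. It had 50.4, 76.6, 167 and 53.2 CPM in onset 1 to 4 and 99.7 CPM in the peak library. Onset 3, the peak library and onset 2 were the 3 highest of all, while onset 1 and onset 4 lay within the naive range. Onset against naive had a log2 fold change of 0.83 (SE 0.36, edgeR adjusted p = 0.813), and 0.31 without onset 3. By the GENCODE M21 annotation, 173 exon bases of Junb (7.52%) overlap exons of Prdx2 on the opposite strand, and whether counting used the strand is not stated, so reads of the 2 genes in that stretch cannot be told apart.

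Egr1, a zinc finger factor induced through ERK signalling, had the widest range of the 10 genes, 18.8-fold over all libraries. It had 315, 163, 65.05 and 81.6 CPM in naive 1, 2, 4 and 5, 348, 139, 88.7 and 46.8 CPM in pre 1 to 4, and 154, 881, 326 and 205 CPM in onset 1 to 4. The peak library had 280.0 CPM. Onset 2 was the highest and pre 4 the lowest, and naive 1 and pre 1 lay above onset 1 and onset 4. Between onset and naive the log2 fold change was 1.34 (SE 0.77, edgeR adjusted p = 0.816), and it was 0.56 without onset 2 and 1.93 without naive 1. Egr3, a relative of Egr1, was barely detected, with 0.605 to 3.29 CPM over all libraries and both extremes in pre. No difference of Egr3 between stages was detected, and what could be detected at this depth was not tested.

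Nr4a1, an orphan nuclear receptor induced by calcium and cAMP signals, had 175, 119, 70.6 and 63.5 CPM in naive 1, 2, 4 and 5, and 154, 154, 117 and 71.5 CPM in pre 1 to 4. It had 143, 229.8, 94.9 and 102 CPM in onset 1 to 4 and 154 CPM in the peak library. Onset 2 was the highest, naive 5 the lowest, and the 3 groups of 4 overlapped nearly throughout. Onset differed from naive by a log2 fold change of 0.42 (SE 0.39).

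Arc, whose product acts at the synapse to remove AMPA receptors, had 6.92, 1.31, 4.32 and 1.97 CPM in naive 1, 2, 4 and 5. It had 1.48 to 3.43 CPM in pre, 1.52 to 4.67 CPM at onset and 2.26 CPM in the peak library. Both the highest and the lowest library were naive, and only 8.24% of the variance of its log2 CPM lay between stages. For Arc too no difference between stages was detected, and what could be detected at this depth was not tested.

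Ier2, a nuclear protein, had 24.2, 28.9, 22.1 and 22.9 CPM in naive 1, 2, 4 and 5, and 26.2, 24.5, 21.7 and 11.6 CPM in pre 1 to 4. It had 24.3, 43.2, 48.7 and 32.8 CPM in onset 1 to 4 and 39.6 CPM in the peak library. Onset 2, 3 and 4 and the peak library were above all 8 naive and pre libraries, and onset 1 lay within their range. The log2 fold change was 0.82 (SE 0.25) for onset against pre and 0.61 (SE 0.25) for onset against naive, with edgeR adjusted p-values of 0.615 and 0.794. Onset against pre was 0.67 without onset 3.

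Ier5, a relative of Ier2 that takes part in the heat shock response through HSF1, had 67.6, 100.3, 99.8 and 79.9 CPM in naive 1, 2, 4 and 5, and 79.9, 93.6, 77.5 and 66.5 CPM in pre 1 to 4. It had 125, 91.4, 129 and 159 CPM in onset 1 to 4 and 175 CPM in the peak library. The peak library was the highest of all 13, and onset 1, 3 and 4 were above all naive and pre libraries, while onset 2 lay within the naive range. The means were 126 ± 27.5 CPM at onset against 86.9 ± 16 CPM in naive (SD, n = 4 each). The log2 fold change was 1.01 (SE 0.25) for peak against naive, 0.54 (SE 0.17) for onset against naive and 0.67 (SE 0.17) for onset against pre. Of the variance of its log2 CPM, 71.5% lay between stages, more than in 98.0% of tested genes, whose median was 24.6%. In this share the peak stage, with 1 library, has no spread within it, and Ier5 was highest in that library. Among alternatives to edgeR the call depended on the test: for peak against naive the adjusted p was 0.167 in edgeR, 0.0118 in DESeq2 and 0.125 in limma-voom, and for any difference among stages it was 0.244, 0.000578 and 0.136 in the same tools. The share of tested genes that DESeq2 called was 1.97% for peak against naive and 1.65% for any difference. The log2 fold change of peak against naive was 1.04 without the 4 libraries richest in rod markers.

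Dusp1, a phosphatase that inactivates p38, JNK and ERK, had 76.7, 79.8, 25.9 and 34.9 CPM in naive 1, 2, 4 and 5, and 70.4, 51.1, 40.9 and 41.3 CPM in pre 1 to 4. It had 51.9, 107, 131 and 59.1 CPM in onset 1 to 4 and 77.4 CPM in the peak library. As for Fos, onset 2 and onset 3 were the highest libraries and naive 4 the lowest, and onset 1 and onset 4 were below naive 1 and naive 2. Its log2 fold change for onset against naive was 0.70 (SE 0.41).

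**Figure D2:**
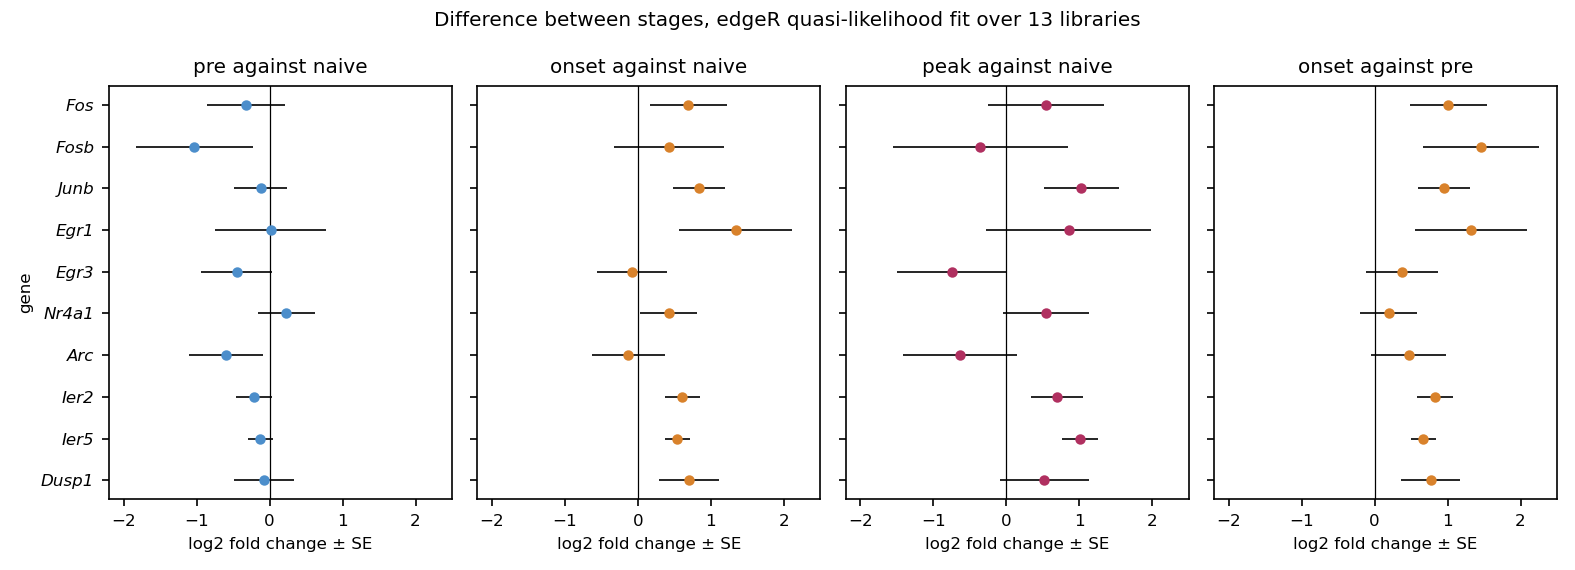
Log2 fold change of each gene with its SE (bars) from the edgeR fit over 13 libraries, for pre, onset and peak against naive and for onset against pre. Bars are narrowest for Ier5 and widest for Egr1 and Fosb, and all 10 points lie above 0 in onset against pre.

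The comparison of pre with naive asked for a difference ahead of symptoms. In edgeR 0 of the 10 genes passed, beside 0% of tested genes, and 0 of the 10 had an unadjusted p under 0.05, beside 5.59% of tested genes. DESeq2 called 6 genes (0.0403%) and limma-voom 0 (0%), none of them among the 10. The log2 fold change was above 0 in 2 of the 10 genes, Nr4a1 at 0.23 and Egr1 at 0.01, against 45.7% of tested genes, and the ranges of pre and naive separated in 0 of the 10, beside 2.98%. The median over the 10 was -0.17, against -0.02 over all tested genes. Rod markers had lower fitted levels in pre than in naive too, with 15 of 15 below 0 and a median of -1.27, as did cone markers, with 10 of 10 (median -1.70), and bipolar markers, with 12 of 12 (median -0.91). In mean log2 CPM, rod markers ran from 3.40 to 7.89 in naive and from 3.86 to 6.81 in pre. Microglia and macrophage markers were above 0 in 16 of 16 (median 1.36). The part of these lists in the values of the 10 genes was not tested.

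For onset against naive, edgeR called 0 of the 10 genes, beside 0% of tested genes, while DESeq2 called 16 genes (0.107%), limma-voom 0 (0%) and neither any of the 10. Unadjusted p-values under 0.05 were found in 3 of the 10, Junb (0.0395), Ier2 (0.0279) and Ier5 (0.00805), against 5.96% of tested genes. The log2 fold change was above 0 in 8 of the 10, all but Arc at -0.13 and Egr3 at -0.08, against 47.3% of tested genes, and its median was 0.57, against -0.01 over all tested genes. In 0 of the 10 did the onset and naive ranges separate, beside 3.08% of tested genes. Among cell markers tested with the same fit, none passed the threshold. Müller glia markers were above 0 in 11 of 11 (median 0.38) and microglia and macrophage markers in 15 of 16 (median 1.29). In mean log2 CPM, however, Müller glia markers had 5.98 at onset and 6.06 in naive, with onset libraries from 4.11 in onset 2 to 7.52 in onset 3. Microglia and macrophage markers had 6.41 in onset 3, while the other onset libraries, from 4.19 to 4.58, were below naive 5 at 4.85. Cone markers were above 0 in 0 of 10 (median -1.92), bipolar markers in 1 of 12 (median -1.04) and ganglion cell markers in 4 of 13 (median -0.95), and the part of these lists was not tested. The values of the 10 genes leaned on few libraries. Without the 4 libraries richest in rod markers (naive 4, naive 5, onset 3 and pre 4), a choice made after seeing the data, Fos had -0.27, Dusp1 -0.10 and Fosb -1.28. In the same fit Junb had 0.14, Nr4a1 0.11, Ier2 0.34, Egr1 0.80 and Ier5 0.57. The libraries left out were also extreme in the 10 genes themselves. The mean deviation of the 10 from their own means was -0.57 in naive 4, -0.42 in naive 5, 0.87 in onset 3 and -0.95 in pre 4. Such a fit therefore cannot tell rod content apart from the levels of the 10 genes.

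Against pre, the onset libraries had higher fitted levels of all 10 genes, from 0.19 in Nr4a1 to 1.46 in Fosb, with a median log2 fold change of 0.80, against 0.01 over all tested genes, of which 52.8% were above 0. Again edgeR called 0 of the 10, beside 0% of tested genes, and the ranges separated in 0 of the 10, beside 4.46%. Unadjusted p-values were under 0.05 for Junb (0.0219), Ier2 (0.00567) and Ier5 (0.00199), against 6.82% of tested genes. DESeq2 called 20 genes (0.134%) and limma-voom 0 (0%), none of them among the 10. DESeq2 gave an adjusted p for 6 of the 10, with 0.0582 for Ier5, and none for Fosb, Egr3, Arc and Ier2. Pre 4 was the lowest library for 5 of the 10 genes. All 10 fold changes were also above 0 without the 4 libraries richest in rod markers, where Fosb had 0.10 and Fos 0.42. Without onset 2 alone, Nr4a1 had -0.14 and the other 9 stayed above 0, and with a covariate of ganglion cell markers Nr4a1 had -0.11 and Arc -0.26. Rod markers also had higher fitted levels at onset than in pre, with 15 of 15 above 0 and a median of 1.01. So did Müller glia markers, with 11 of 11 above 0 (median 0.76), and endothelial markers, with 4 of the 4 tested (median 0.71). In mean log2 CPM, Müller glia markers ran from 4.11 in onset 2 to 7.52 in onset 3, and from 4.86 to 6.47 in pre. Ganglion cell markers were below 0 in 9 of 13 (median -1.07), and the part of these lists was not tested.

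The single peak library can be compared only on the assumption that it varies like the others. For peak against naive edgeR called 0 of the 10 genes, beside 0.161% of tested genes (1 higher and 23 lower), a count that was 0 with the replicate number as a block. Ier5 was the only one with an unadjusted p under 0.05 (0.00149), against 9.56% of tested genes. The log2 fold change was 1.03 (SE 0.51) for Junb, 0.69 (SE 0.36) for Ier2, 0.85 (SE 1.13) for Egr1 and -0.35 (SE 1.20) for Fosb, and it was above 0 in 7 of the 10, against 46.5% of tested genes. DESeq2 called 293 genes (1.97%), among them Ier5, but gave no adjusted p for Fosb, Egr3, Arc and Ier2, and limma-voom called 99 (0.665%), none of them among the 10. Of the cell markers, 10 of 13 ganglion cell markers were below 0 (median -1.59), and microglia and macrophage markers were above 0 in 16 of 16 (median 1.42). Rod, cone and bipolar markers were below 0 in 15 of 15, 10 of 10 and 12 of 12. In mean log2 CPM, however, rod markers in the peak library were above the naive mean, while cone and bipolar markers were below theirs. Rod markers ran from 3.40 to 7.89 in naive. For rod, cone and bipolar markers alike, the peak library lay above naive 1 and naive 2 and below naive 4 and naive 5. The part of all these cell markers was not tested. For peak against onset edgeR called 0 of the 10, beside 0% of tested genes, with unadjusted p-values under 0.05 in 0 of the 10 and in 5.08% of tested genes. DESeq2 called 113 genes (0.759%) there and limma-voom 20 (0.134%), none of them among the 10, of which 6 had an adjusted p in DESeq2. In 4 of the 10 the log2 fold change was above 0, against 48.7% of tested genes. For any difference among the 4 stages edgeR likewise called 0 of the 10, beside 0% of tested genes, with unadjusted p-values under 0.05 in Ier5, Ier2 and Junb, against 8.19% of tested genes. DESeq2 called 245 genes (1.65%), again with Ier5 among the 6 of the 10 that had an adjusted p, and limma-voom 17 (0.114%) without any of the 10. Comparisons that share the naive, pre or onset libraries are not separate lines of evidence.

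**Figure D3:**
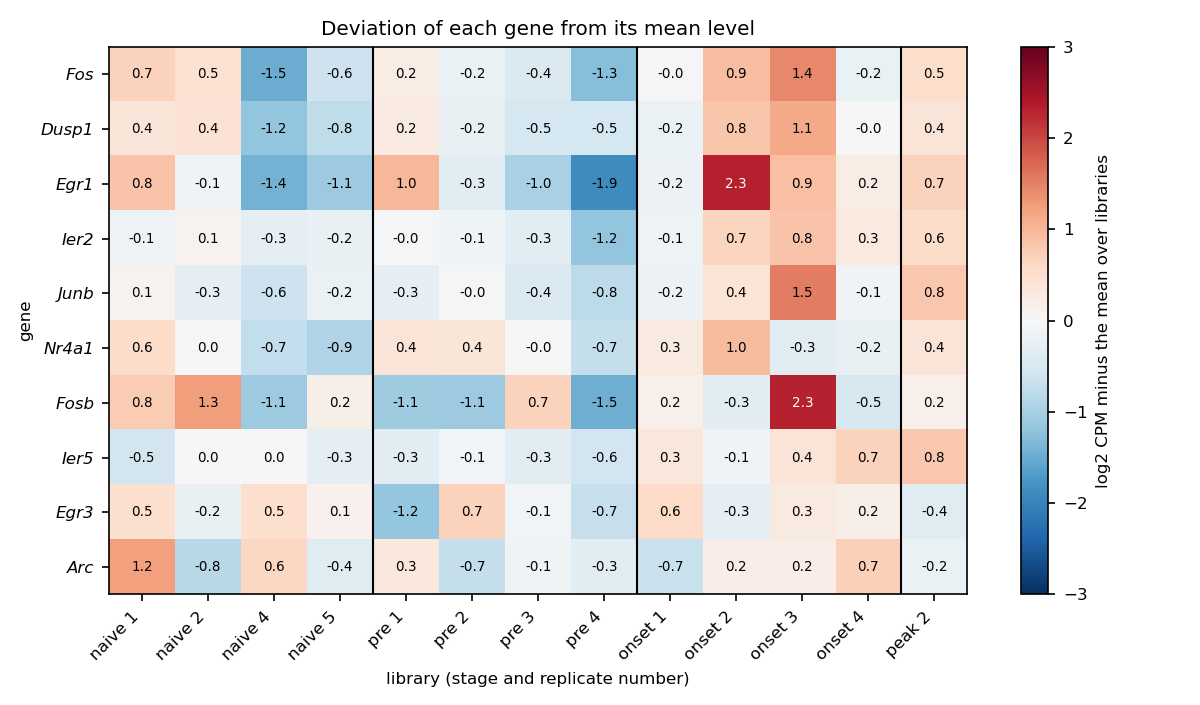
Log2 CPM of each gene minus its mean over 13 libraries, with libraries in columns, grouped by stage from naive to peak, and genes in rows. Onset 3 is above the mean for 9 of the 10 genes, all but Nr4a1, and pre 4 for 0 of the 10.

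Averaged levels of the 10 genes differed between libraries of the same stage. The deviations below are from means over all 13 libraries, so they include differences between stages. Averaged over the 10 genes, each centred on its own mean, the deviation was 0.87 log2 units in onset 3, 0.56 in onset 2, 0.44 in naive 1 and 0.37 in the peak library. At the other end it was -0.95 in pre 4, -0.57 in naive 4 and -0.42 in naive 5. Onset 3 was the highest library for 5 of the 10 genes (Fos, Fosb, Junb, Ier2 and Dusp1) and onset 2 for Egr1 and Nr4a1. Thus onset held both libraries with the highest deviations and onset 1, at -0.01, while naive ran from -0.57 to 0.44.

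Across the 13 libraries, 45 pairs of genes were compared by correlation of log2 CPM, with permutation p-values adjusted over the 45. Of these, 12 passed by Pearson's r, 13 by Spearman's rho and 11 by both. How often pairs of other tested genes would pass was not measured. All 10 pairs within Fos, Junb, Egr1, Ier2 and Dusp1 passed by both, with r from 0.67 to 0.96. These 5 genes were grouped by these same correlations, so that count is a description and not a test. Fos and Dusp1 gave r = 0.96 and rho = 0.95 (permutation p = 1e-05, the smallest that 100000 resamples can give, adjusted p = 0.00045 for both), and r = 0.91 without the 2 libraries farthest from the median of Fos. Fos and Egr1 gave r = 0.87 and rho = 0.89 (permutation p = 0.00013 and 9e-05, adjusted p = 0.00195 and 0.00202), and r = 0.91 without those 2 libraries. With the stage means removed over the 12 libraries of replicated stages, r was 0.95 for Fos and Dusp1 and 0.82 for Fos and Egr1, and within the 5 genes it ran from 0.50 to 0.95.

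Other pairs were looser. Nr4a1 varied with Egr1, with r = 0.80 (permutation p = 0.00107, 0.0054 after adjustment) and rho = 0.72 (0.00685, and 0.0308 after adjustment), and pre 4 and onset 2, farthest from the median of Egr1, left r at 0.64 when taken out. Fosb passed with Fos by r alone, at 0.68 (permutation p = 0.0115, 0.0446 after adjustment), since rho was 0.58 (0.0432, and 0.13 after adjustment), and r was 0.44 without naive 4 and onset 3, so that relation rests on those libraries. For Ier2 and Ier5, r was 0.65 (permutation p = 0.0145, adjusted p = 0.0503) and rho 0.68 (permutation p = 0.013, adjusted p = 0.0449), but r was 0.16 once stage means were removed. Egr3 and Arc passed in 0 of their 17 pairs, with r from -0.20 to 0.32. They rested on 3 to 30 counts per library.

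**Figure D4:**
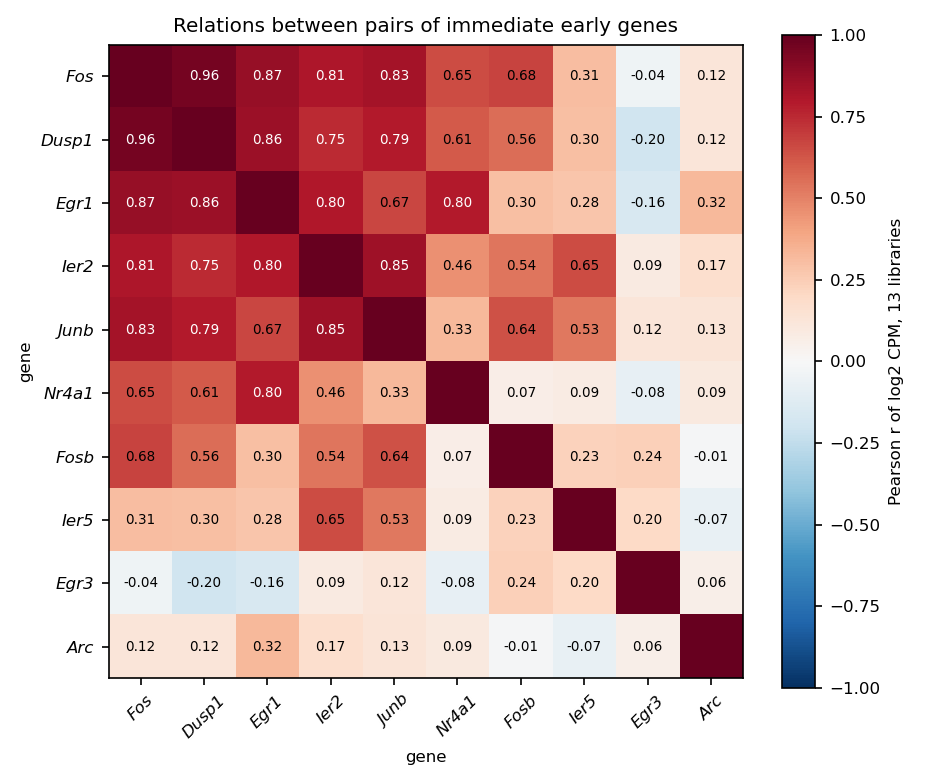
Pearson r of log2 CPM between each pair of immediate early genes over 13 libraries, on a colour scale from -1 to 1. Fos, Dusp1, Egr1, Ier2 and Junb form a block with r of at least 0.67, while Egr3 and Arc stay between -0.20 and 0.32.

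The proportions among the genes were not fixed. In counts, Dusp1 ranged from 32.6% to 69.8% of Fos over the 13 libraries, with a median of 39.1%. Nr4a1 ranged from 24.3% to 138% of Fos and Egr1 from 79.1% to 323%. Fosb ranged from 5.98% to 32.9%. Dusp1 thus kept the narrowest ratio to Fos of these 4 genes.

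The spread between replicates is summed up by the biological coefficient of variation (BCV), the relative SD between replicates that edgeR fits beyond counting error. All 10 genes were above the median BCV of tested genes, 0.169, and their own median was 0.387. Fosb, at 0.715, exceeded 96.2% of tested genes, Egr1, at 0.707, exceeded 96.0% and Fos, at 0.506, exceeded 90.6%. Ier2 had 0.240 and Ier5 0.177, which is above 52.9% of tested genes. Stages accounted for 53.9% of the variance of Ier2 and 46.6% of that of Junb. They accounted for 31.5% of Egr1 and 27.8% of Fos, near the median of 24.6% over tested genes. In these shares the single peak library counts as a stage without spread. Exon length here covers all annotated exons of a gene and is not the length of a transcript. In 9 of the 10 it was under the median of 4532 bases of tested genes with a known length. The median of the 10 was 3293.5 bases.

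**Figure D5:**
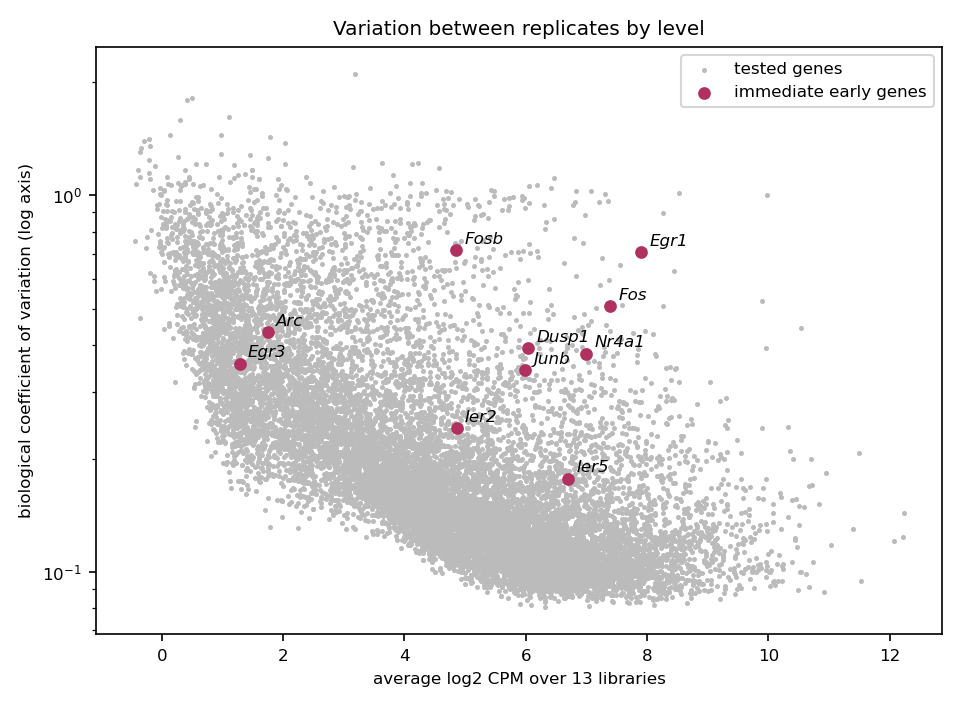
BCV (log axis) against average log2 CPM for 14893 tested genes, in grey, with the 10 immediate early genes marked. Fosb at 0.715, Egr1 at 0.707 and Fos at 0.506 lie well above most genes of similar level, Ier5 at 0.177 lies nearer to them, and Egr3 and Arc lie among genes of similarly low level.

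Markers of other retinal cells were set beside the 10 genes, as the mean log2 CPM of each list of tested markers. None of 90 relations, of 8 marker lists and the gene total with the 10 genes, passed by r or rho. The smallest p-values were those of Nr4a1, with bipolar cell markers and with rod markers. For bipolar cell markers r was -0.81 (permutation p = 0.00096, 0.0864 after adjustment over the 90) and rho -0.75 (0.00471, and 0.23 after adjustment). For rod markers r was -0.76 (permutation p = 0.00293, 0.132 after adjustment) and rho -0.74 (0.00512, and 0.23 after adjustment). Without the 2 libraries farthest from the median of the marker list, r was -0.66 for bipolar and -0.70 for rod markers. With stage means removed over the libraries of replicated stages, it was -0.82 and -0.88. For Fos and Dusp1, r with rod markers was -0.32 in both, and -0.74 and -0.68 without the 2 farthest libraries. Their r with bipolar markers was -0.50 in both, and -0.17 and -0.05 without the 2 farthest. Onset 3 had the highest microglia and macrophage markers (6.41) and the highest Müller glia markers (7.52) of all 13 libraries, and rod markers of 7.87. Onset 2, the other onset library with high values, had 4.19 for microglia, 4.11 for Müller glia and 4.43 for rods. In ganglion cell markers onset 3 had 4.18, onset 2 4.08, naive 1 4.18 and the peak library 3.93, all low among the 13 libraries. With ganglion cell markers, r ran from -0.60 for Junb to 0.02 for Egr3 over the 10 genes. Once stage means were removed it ran from -0.56 for Arc to 0.53 for Ier5, with -0.26 for Junb. The part of all these markers was not tested.

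A further 4 lists of related genes gave a wider view, with 0 genes past the threshold in each comparison, and the rule took from each the 4 genes with the smallest p for any difference among stages. Of 20 other early transcription factors, 19 were tested, and their median log2 fold change was 0.19 for both onset against naive and onset against pre. It was -0.10 for pre against naive, -0.17 for peak against naive and -0.44 for peak against onset. Npas4, a neuron-specific factor induced by calcium entry, had 69.2 CPM in the peak library, against 128 ± 27.0 CPM in naive (SD, n = 4), a log2 fold change of -0.88 (SE 0.29). Klf6, a zinc finger factor, had 51.0 ± 9.95 CPM at onset against 36.2 ± 10.6 CPM in naive, a log2 fold change of 0.51 (SE 0.21). Egr2, another EGR factor, had 2.30 ± 1.26 CPM at onset against 0.861 ± 0.306 CPM in pre, near the floor of counting. Nfil3, a basic leucine zipper factor, had 23.5 ± 1.86 CPM in pre against 18.9 ± 1.01 CPM in naive.

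Among early effector and feedback genes, 34 of 36 listed symbols were in the table and 32 were tested, with a median log2 fold change of 0.02 for onset against naive and 0.08 for onset against pre. Btg2, an antiproliferative gene, had 54.8 ± 15.7 CPM at onset against 35.9 ± 5.01 CPM in pre, a log2 fold change of 0.62 (SE 0.19). Dusp6, a phosphatase of ERK, had 38.3 CPM in the peak library against 20.4 ± 6.25 CPM in naive, a log2 fold change of 0.89 (SE 0.32). Socs3, a feedback inhibitor of cytokine signalling, had 34.5 ± 35.3 CPM at onset against 11.8 ± 4.45 CPM in naive, with onset libraries from 13.1 to 87.3 CPM. Btg1, a relative of Btg2, had 94.5 CPM in the peak library against 69.4 ± 8.91 CPM in naive.

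Upstream of the immediate early genes, 31 of 33 listed kinases and activators were in the table and tested, with medians of -0.04 for onset against naive and -0.03 for onset against pre. Elk4, a partner of the serum response factor, had 13.1 CPM in the peak library against 22.9 ± 2.14 CPM in naive, a log2 fold change of -0.81 (SE 0.23). The coactivators Ep300 and Crebbp had 193 and 146 CPM in the peak library, against 239.9 ± 6.91 and 189 ± 6.82 CPM in naive. Rps6ka1, a kinase below ERK, had 31.2 ± 5.57 CPM in pre against 20.5 ± 3.65 CPM in naive.

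Heat shock genes that appear in signatures of tissue dissociation were all tested, and 0 of 13 passed in edgeR in any comparison. In pre against naive 12 of 13 were above 0 with a median of 0.24, against 45.7% of tested genes, and in onset against pre 2 of 13 were above 0 with a median of -0.16, against 52.8%. Hsph1, a chaperone cofactor, had 125 ± 20.2 CPM in pre against 82.8 ± 17.2 CPM in naive, a log2 fold change of 0.60 (SE 0.17), and 83.3 ± 14.0 CPM at onset. Hspa5, the chaperone of the endoplasmic reticulum, had 479 ± 47.4 CPM in pre against 342 ± 70.2 CPM in naive. Hsp90ab1 had 1103 ± 61.4 CPM in pre against 931 ± 184 CPM in naive, and Dnaja1 119 ± 12.9 against 105 ± 12.8 CPM. None of these 4 passed in edgeR, and the smallest adjusted p of Hsph1 was 0.272, for any difference among stages.

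The likeness of other genes to the 10 was measured, as a description, by Pearson's r over the 13 libraries with the mean centred log2 CPM of the 10. Of the 10 genes most alike, Rbbp5 had r = 0.92, Dnpep 0.90, Mrpl14 0.86 and Pim1 0.84. Luzp2, Dync1i2, Eif3e, Alg2, Tmem209 and Mad2l2 had r from 0.82 to 0.84. All 10 ranged less than the immediate early genes did: Rbbp5 ran from 62.9 to 85.0 CPM and Luzp2 from 56.7 to 123 CPM over all libraries. Among the lists above, chosen after their values were seen, r was at least 0.5 in 4 of 19 transcription factors, Klf6 (0.78), Egr4 (0.71), Egr2 (0.56) and Jun (0.52), and in 5 of 32 effector genes, led by Ppp1r15a (0.82) and Errfi1 (0.69). It was at least 0.5 in 2 of 31 upstream genes and in 0 of 13 heat shock genes, against 6.42% of tested genes.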

How the data were processed

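Counts of 13 libraries were analysed, of 14 labelled samples. The authors deposited raw read counts per gene symbol with 5 summary lines. Per the submitters' processing notes the tools were cutadapt, HISAT2, HTSeq and DESeq2. Versions, genome build, annotation and strandedness are not given in the sources used here. Reads in no feature, 24.4% to 29.7% of those in genes, in no feature or ambiguous, were left out of totals and tests.

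The main test was the quasi-likelihood test of edgeR 4.0.16 (R 4.3.3), with TMM factors, a filter by group with a minimum count of 10, and 1 robust fit over all 13 libraries. P-values are two-sided and adjusted by Benjamini-Hochberg over 14893 genes, with a threshold of 0.05. CPM values are given with the SD over libraries, and log2 CPM used a prior count of 2. Correlations were tested by permutation with 100000 resamples, two-sided. Exon lengths came from GENCODE M21. The tests were tried on simulated data.

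The 10 genes and all lists were chosen with earlier results of these data known. All 10 are always named. For each list of related genes the rule names up to 4 genes with the smallest p for any difference among stages, and as most alike the 10 genes with the highest r.

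Alternatives were DESeq2 1.42.0, limma-voom (limma 3.58.1) with quality weights, RLE and upper-quartile factors, no filter or a CPM filter, a fit of the compared groups alone, a block on replicate number, a covariate of rod or of ganglion cell markers, and each library left out. Pairing by number was checked from the data, since the labels give no shared animal. Deviations of same-numbered pre and naive libraries correlated across genes at 0.27, 0.19 and 0.29. Onset libraries gave -0.06 to -0.01 with naive and -0.39 to 0.25 with pre. Libraries of different numbers were not correlated for comparison, so these values cannot decide whether any shared number marks a pair. The main test used no pairing.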

Additional observations from a re-analysis of the deposited data

Results flagged for a closer look

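In 2 of 30 groups of 4 libraries, 1 library lay so far from the others that its gap to the nearest exceeded Dixon's 95% critical value, and chance flags about 1 group in 20. Both were Fosb. Pre 3 had 34.9 CPM, against 7.55 to 10.1 CPM in the other pre libraries. Onset 3 had 108 CPM, against 15.3 to 23.9 CPM in the other onset libraries.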

How the results depend on the processing

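The direction of the 50 fold changes of the 10 genes was kept in 1123 of 1180 alternative values and reversed in 57, of which 25 left out 1 library, and 24 of the 50 had a reversal. None of the 10 passed in edgeR without any 1 library, with a lowest adjusted p of 0.0962. The causes of the changes were not tested. Only DESeq2 called one of the 10 genes, Ier5 (a count of 1), for peak against naive and for any difference among stages. It gave Fosb, Egr3, Arc and Ier2 no adjusted p in either.

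Log2 fold changes that reversed were as follows. For pre against naive, limma-voom gave Fos 0.31, Junb 0.023 and Dusp1 0.44, the rod index Egr1 -0.29, and the ganglion cell index Junb 0.00063 and Dusp1 0.099. Without the 4 libraries richest in rod markers, chosen after seeing the data, Egr1 had -0.30 and Nr4a1 -0.040. Those 4 libraries were also extreme in the immediate early genes themselves. For onset against naive, limma-voom gave Arc 0.18 and the ganglion cell index Egr3 0.030, and without the rod-richest libraries Fos had -0.27, Fosb -1.28 and Dusp1 -0.10. For peak against naive, limma-voom gave Fosb 0.34 and the ganglion cell index Egr1 -0.16, and without the rod-richest libraries Fos had -0.064 and Dusp1 -0.032. For onset against pre, the ganglion cell index gave Arc -0.26 and Nr4a1 -0.11. For peak against onset, limma-voom gave Fos 0.12, Fosb 0.018 and Dusp1 0.010, the ganglion cell index Nr4a1 -0.021, and leaving out the rod-richest libraries gave Fos 0.21, Fosb 0.37, Nr4a1 -0.048 and Dusp1 0.069.

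With the replicate number as a block, Egr1 had -0.16 in pre against naive and Fosb -0.56 in onset against naive. For peak against onset the block gave Arc 0.082, Nr4a1 -0.26 and Ier2 -0.10. The block changed the count of genes for peak against naive to 0 and no other call.

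Leaving out 1 library in turn gave ranges that crossed 0. In pre against naive they were -0.60 to 0.015 for Fos, -0.25 to 0.0064 for Junb, -0.30 to 0.18 for Dusp1 and -0.75 to 0.61 for Egr1. For onset they were, against naive, -0.41 to 0.35 for Arc, -0.72 to 0.81 for Fosb and -0.22 to 0.082 for Egr3, and against pre -0.14 to 0.34 for Nr4a1. For Fosb in peak against naive the range was -0.66 to 0.028. In peak against onset they were -0.36 to 0.21 for Fos, -1.07 to 0.36 for Fosb, -0.37 to 0.071 for Dusp1, -0.049 to 0.45 for Nr4a1, -0.091 to 0.22 for Ier2, -0.0098 to 0.71 for Junb and -0.77 to 0.29 for Egr1.

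Counts of genes past the threshold also moved. For pre against naive there were 6 in DESeq2 and 100 with the rod index. For onset against naive there were 16 in DESeq2, 1 with the rod index and 0 to 1 without 1 library. For peak against naive, 24 in the main test, there were 293 in DESeq2, 99 in limma-voom, 111 with the rod index, 13 with the ganglion cell index, 0 with only the groups compared, 142 without the rod-richest libraries and 7 to 25 without 1 library. For onset against pre there were 20 in DESeq2 and 2 with the ganglion cell index. For peak against onset there were 113 in DESeq2, 20 in limma-voom, 6 with RLE factors, 1 with no filter, 6 with a filter of 1 CPM in 4 libraries, 11 with the rod index, 6 without the rod-richest libraries and 0 to 9 without 1 library. For any difference there were 245 in DESeq2, 17 in limma-voom, 6 with no filter and 72 with the rod index. Depth limits Egr3 and Arc, at 3 to 30 counts per library.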
